A study of Mus musculus with 12 samples.

Results

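The mitochondrial ribosomal protein genes of the mouse, whose symbols begin with Mrpl or Mrps followed by a number, were followed across age in the subventricular zone (SVZ), the tissue along the lateral ventricle that keeps neural stem cells in the adult brain. The rule took each row of the deposited table with such a symbol, excluding pseudogene symbols ending in -ps, and gave 76 genes of 23725, of which 47 are named Mrpl and 29 Mrps. RNA was sequenced from male wild-type mice at 2, 6, 18 and 22 months, with 3 libraries at each of the 4 ages. SVZ tissue had been dissected and dissociated to single cells before RNA was taken with Trizol. The strain, C57BL/6, was labelled at 2 months alone and was not labelled at the other ages. Whether each library is a separate animal is not labelled, so p-values measure the spread between libraries, which may be technical. The RNA came from all cells of the dissected tissue, so a change in the number of cells of a type and a change in the RNA per cell cannot be told apart.

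Mitochondria translate the few proteins encoded in their own DNA, all of them membrane subunits of the respiratory chain and ATP synthase, on a ribosome of their own. Its RNAs come from mitochondrial DNA, while its proteins are encoded in the nucleus, made on cytosolic ribosomes and imported. Some of these proteins have a counterpart in the bacterial ribosome and others were added in mitochondria, so the family mixes an old core with a newer shell. In the neural stem cell lineage, respiratory metabolism is known to be raised as stem cells leave quiescence and make neurons.

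Read totals ran from 6381390 to 15962517 per library, and from 6381390 to 8992891 in the oldest group. Shares by transcript length were taken of the reads on genes with an annotated transcript length, not of all reads. The share on transcripts under 1500 nt was 9.48% ± 0.177 (SD, n = 3) at 2 months, then 9.90% ± 0.533 at 6, then 10.1% ± 0.431 at 18, and 11.3% ± 0.103 by 22 months. Transcripts over 6000 nt held 19.8% ± 0.551 of the same reads in the youngest and 16.3% ± 0.169 in the oldest libraries. Replicate 1 at 6 months (10.5%) and replicate 2 at 18 months (10.6%) stood above the other libraries of their ages in the share of short transcripts. The mitochondrial ribosomal protein genes are short, with a median transcript of 1224.5 nt against 2942 nt over the tested genes, and 48 of the 76 have a transcript under 1500 nt. This shift stands beside each result on the 22-month libraries.

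The family took a larger share of the reads at 22 months than at any earlier age. It held 0.173% ± 0.00648 of the reads at 2 months (SD, n = 3), then 0.176% ± 0.00942 at 6, then 0.176% ± 0.0119 at 18, and 0.201% ± 0.00113 by 22 months. The 3 libraries at 22 months held 0.202%, 0.200% and 0.200%, above all 9 earlier libraries, whose highest value was 0.189% in replicate 2 at 18 months. That library and replicate 1 at 6 months (0.187%) were the highest of their ages, and both were also the highest of their ages in the share of short transcripts. Relative to 2 other gene sets, the family was lower in the oldest libraries. Its reads were 0.231 ± 0.00349 of those on nuclear respiratory chain and ATP synthase genes at 2 months and 0.213 ± 0.00206 at 22 months, and 0.205 ± 0.00272 and 0.178 ± 0.00184 of those on cytosolic ribosomal protein genes. Neither ratio overlapped between these ages.

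Of the 76 genes, 75 reached 10 normalised counts in 3 or more libraries and were tested. Mrpl53, a large-subunit gene, was listed at 0 in all 12 libraries. Whether it was part of the annotation used for counting is not given in the sources used here, so no level is drawn from it. If it was counted, a count of 0 allows up to 3 reads, or 1.74 to 4.41 normalised counts depending on the library, counting error only. The next lowest gene, Mrpl22, had 72.0 normalised counts in its third-highest library, well inside the filter. Per kilobase of transcript, averaged over all 12 libraries, the highest levels were those of Mrps33 (551 normalised counts per kb), Mrps21 (501) and Mrpl27 (389.5), and the lowest above 0 were those of Mrpl47 (24.7), Mrps35 (26.1) and Mrpl17 (35.4). These levels rest on 1 annotated transcript per gene, and a longer or shorter form would move them.

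**Figure D1:**
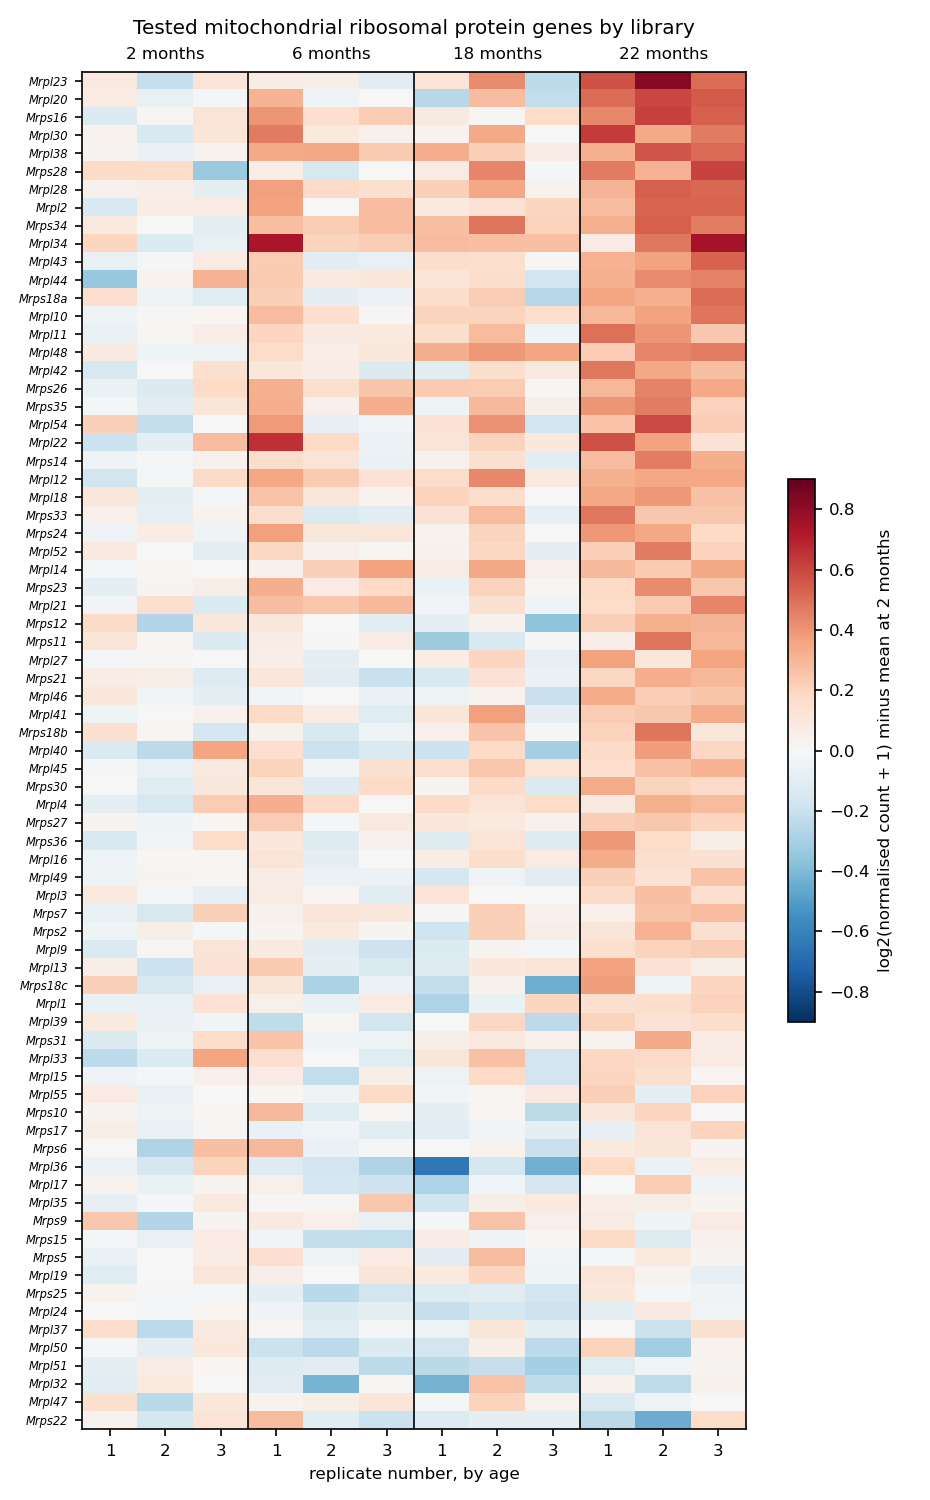
Level of each of the 75 tested mitochondrial ribosomal protein genes in each of the 12 libraries (columns, grouped by age), as log2 of the normalised count plus 1 minus the gene's mean at 2 months, with genes ordered by their fold change at 22 against 2 months. Red is higher and blue lower than at 2 months; 63 of the 75 genes have their highest mean at 22 months.

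The genes lie on 17 chromosomes, with 10 on chromosome 11 and 8 on chromosome 17. RefSeq promoter windows of 300 bases (250 before and 50 from the transcription start, GRCm38.p6) were found for 67 of the 76, all but Mrpl4, Mrpl13, Mrpl15, Mrpl19, Mrpl38, Mrpl54, Mrps28, Mrps34 and Mrps35. They were searched on both strands for letters bound by 3 factors known for nuclear genes of mitochondria: GCGC and GCGC separated by any base and a T for NRF1, CCGGAAG for ETS factors such as GABPA, and AAGATGGCG for YY1, of which the latter pair can share the letters AAG. The NRF1 letters stood in the promoters of 12 of the 67 genes (17.9%), against 10.1% of 12267 tested genes with a window. The ETS letters stood in 24 (35.8%), against 17.5%, and the YY1 letters in 8 (11.9%), against 3.03%. At least 1 of these motifs was found for 39 genes (58.2%), against 27.3%. A match is a string of letters and not a measured site.

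The promoter windows of genes described in the results are printed 5′ to 3′ on the strand of the gene, as examples of each motif, and were chosen after the matches were seen. Capitals mark the matches, which in Mrps11 and Mrps16 are on the other strand and so read as the reverse complement, and the first 250 bases lie before the transcription start. They are Mrps11 (plus strand, chr7:78782881-78783180), with a YY1 match 143 to 151 bases into the window, Mrps16 (minus strand, chr14:20393441-20393740, 1 of 2 windows of this gene) with ETS matches at 177 to 183 and 275 to 281, Mrpl43 (minus strand, chr19:45006393-45006692) with ETS matches at 195 to 201 and 239 to 245, and Mrpl12 (plus strand, chr11:120484387-120484686) with an NRF1 match at 170 to 179.
Mrps11: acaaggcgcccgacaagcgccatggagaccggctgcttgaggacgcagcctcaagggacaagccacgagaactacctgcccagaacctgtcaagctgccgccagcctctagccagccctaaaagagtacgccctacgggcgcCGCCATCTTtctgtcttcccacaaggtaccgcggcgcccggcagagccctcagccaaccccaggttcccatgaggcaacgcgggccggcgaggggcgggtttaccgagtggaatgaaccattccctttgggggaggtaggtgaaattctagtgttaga
Mrps16: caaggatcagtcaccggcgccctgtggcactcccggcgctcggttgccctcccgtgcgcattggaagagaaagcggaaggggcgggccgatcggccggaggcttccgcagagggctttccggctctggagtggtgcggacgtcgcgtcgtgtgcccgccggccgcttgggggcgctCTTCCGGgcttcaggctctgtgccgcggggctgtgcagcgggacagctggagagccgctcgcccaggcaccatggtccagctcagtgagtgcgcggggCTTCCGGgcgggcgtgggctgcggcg
Mrpl43: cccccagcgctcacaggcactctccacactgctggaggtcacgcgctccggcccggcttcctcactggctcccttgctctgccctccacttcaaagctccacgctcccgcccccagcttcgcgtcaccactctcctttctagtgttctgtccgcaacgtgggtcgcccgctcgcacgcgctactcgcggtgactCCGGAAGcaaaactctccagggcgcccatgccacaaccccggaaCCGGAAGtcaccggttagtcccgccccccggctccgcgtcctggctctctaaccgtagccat
Mrpl12: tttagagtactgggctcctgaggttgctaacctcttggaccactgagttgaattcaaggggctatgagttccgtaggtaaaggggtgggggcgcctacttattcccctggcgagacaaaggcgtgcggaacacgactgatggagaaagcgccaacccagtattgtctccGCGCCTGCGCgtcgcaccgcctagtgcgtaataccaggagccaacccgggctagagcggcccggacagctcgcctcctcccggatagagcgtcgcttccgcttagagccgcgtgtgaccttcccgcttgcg

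Many of these genes start beside a gene read the other way. A start on the opposite strand within 1000 bases was found for 25 of the 67 genes (37.3%), against 18% of the 12267 tested genes. The starts of Mrps11 and Mrpl46, both members of the family, lie 42 bases apart. Mrpl43 starts 116 bases from Twnk, the helicase that copies mitochondrial DNA, and Mrps12 starts 147 bases from Sars2, the mitochondrial seryl-tRNA synthetase. The values of these neighbours are given with the genes.

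The first step compared 6 with 2 months. No member passed an adjusted p of 0.05 (limma, Benjamini-Hochberg over all 15663 tested genes), where 0.926% of all tested genes did (0.607% higher and 0.319% lower). At an unadjusted p under 0.05, 9 members of 75 passed (8 higher, 1 lower), beside 15.4% of all tested genes. edgeR and DESeq2 called none either. The median log2 fold change over the family was 0.05, against 0.00 over all tested genes.

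The step from 6 to 18 months gave no calls either. None of the 75 passed with limma, edgeR or DESeq2, where limma called 0.153% of all tested genes (0.0702% higher and 0.083% lower). A single member, Mrpl48, passed an unadjusted p of 0.05, beside 9.19% of all tested genes. Mrpl48, a mitochondria-specific protein of the large subunit, had 269, 248 and 246 normalised counts at 2 months, then 284, 264 and 271 at 6, then 318, 333 and 324 at 18, and 297, 345 and 349 by 22 months. The 3 libraries at 18 months lay above all 6 libraries of the younger ages. Its log2 fold change was 0.25 ± 0.08 (SE) for 18 against 6 months and 0.36 ± 0.08 for 18 against 2 months (limma, adjusted p = 0.0127). Mrpl48 shares 727 nt of annotated gene span with Rab6a, a tested gene. Whether the counting used strand is not given in the sources used here, so the reads of Mrpl48 are uncertain.

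Between 2 and 18 months, 2 members rose, beside 3.94% of all tested genes called higher, and none fell, beside 3.35% (7.28% in either direction). These were Mrpl48 and Mrps34, a mitochondria-specific small-subunit protein that keeps the small subunit and its RNA stable. Mrps34 had 178, 168 and 157 normalised counts at 2 months and 202, 234 and 194 at 18 months, without overlap, and its log2 fold change was 0.32 ± 0.09 (limma, adjusted p = 0.0498). The Mrps34 call held in 1 of 12 fits with a library left out, that without replicate 1 of 22 months, and was lost with DESeq2 and once the trend over length and GC content was removed. The Mrpl48 call was lost without replicate 2 of 2 months and held without each of the other libraries. The count of members was 0 without replicate 2 of 2 months, and 2 without replicate 2 of 18 months, where Mrps34 was not among them. Over all tested genes, the count called higher went from 617 to between 317 without replicate 3 of 18 months and 736 without replicate 1 of 22 months. Mrpl36, the large-subunit counterpart of the smallest bacterial ribosomal protein, had 145, 136 and 174 at 2 months and 96.1, 135 and 111 at 18 months, without overlap, and did not pass (-0.41 ± 0.13, adjusted p = 0.0615).

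The last step, from 18 to 22 months, had the most calls of the 3 steps between neighbouring ages. Here 12 of the 75 members rose, beside 8.63% of all tested genes called higher, and none fell, beside 10.2% called lower (18.9% in either direction). The median log2 fold change was 0.21 over the family and 0.02 over all tested genes. Of the 12, 5 belong to the small subunit (26 tested) and 7 to the large subunit (48 tested). The count ran from 3 without replicate 3 of 18 months to 19 without replicate 2 of 18 months, and was 6 without replicate 1 of 18 months, replicate 2 of 22 months or replicate 3 of 22 months. Over all tested genes the count called higher, 1352, moved in the same directions, to 430.0 without replicate 3 and 1582 without replicate 2 of 18 months, and to 757, 744 and 703 without replicate 1 of 18 months and replicates 2 and 3 of 22 months. DESeq2 called 5 members and edgeR 10, and over all tested genes 923 and 1134 higher. With each library left out in turn, the calls of Mrpl20 and Mrps16 held in all 12 fits. Those of Mrpl23, Mrpl46 and Mrps14 held in 10, of Mrpl36, Mrpl49 and Mrps11 in 9, of Mrps12 in 8, of Mrpl42 in 6, of Mrps21 in 5 and of Mrpl43 in 4. DESeq2 kept Mrpl20, Mrpl23, Mrpl36, Mrpl49 and Mrps16, and edgeR lost Mrpl42 and Mrps21. Of the 12, Mrpl20, Mrpl49, Mrps14 and Mrps16 were still called once the length and GC trend was removed.

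In the small subunit, the 5 genes that rose between 18 and 22 months all have bacterial counterparts. Mrps16, whose human counterpart is mutated in a lethal defect of mitochondrial translation (chromosome 14, 20391222 to 20393634, RefSeq GRCm38.p6), had 107, 102 and 113 normalised counts at 18 months and 137, 156 and 147 at 22 months. All 3 of the older libraries lay above the 3 younger ones, and above the 6 libraries of 2 and 6 months too (92.7, 102 and 109.9; 134, 113 and 119). The log2 fold change was 0.44 ± 0.11 against 18 months (adjusted p = 0.0118) and 0.53 ± 0.11 against 2 months (adjusted p = 0.00169). The call against 2 months, too, held without each library in turn and once the length and GC trend was taken out. Mrps14 had 223, 239.9 and 202 at 18 months and 263, 298 and 271 at 22 months, without overlap, a log2 fold change of 0.32 ± 0.09 (adjusted p = 0.0196). Mrps12, which lines the decoding centre where codon and anticodon meet, had 134, 145 and 109.8 against 164, 176 and 175 at these ages (0.41 ± 0.13, adjusted p = 0.0311). Against 2 months, where it had 159, 117 and 151, Mrps12 did not pass (adjusted p = 0.0962), and its neighbour Sars2 changed by -0.22 ± 0.14 on the log2 scale (adjusted p = 0.242). Mrps21 had 213, 258 and 225 against 267, 295 and 289 at 18 and 22 months (0.29 ± 0.10, adjusted p = 0.0471), a call also lost with the replicate block and with the compared ages alone.

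Both genes of the divergent pair rose at this step. Mrps11 had 90.2, 102 and 111 normalised counts at 18 months and 117, 157 and 139 at 22 months, and Mrpl46 had 149.7, 158 and 135 against 196, 181 and 184. For both genes the 22-month libraries lay above the 18-month libraries. The log2 fold changes were 0.44 ± 0.12 (adjusted p = 0.0217) and 0.34 ± 0.09 (adjusted p = 0.0197). Against 2 months they were 0.28 ± 0.12 and 0.27 ± 0.09, and only the latter passed (adjusted p = 0.09 and 0.0354). The difference between the pair was not tested.

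In the large subunit, Mrpl20 and Mrpl23 had the largest log2 fold changes at the last step among the members called. Mrpl20 (chromosome 4, 155802878 to 155808831), whose bacterial counterpart is needed to start assembly of the large subunit, had 238, 216 and 224 normalised counts at 2 months, then 280.3, 221 and 226 at 6, then 189.7, 274 and 193 at 18, and 319, 342 and 331 by 22 months. All 3 oldest libraries lay above the other 9, while replicate 1 at 6 months and replicate 2 at 18 months stood highest at their ages. Its log2 fold change was 0.62 ± 0.12 against 18 months (adjusted p = 0.00325) and 0.55 ± 0.12 against 2 months (adjusted p = 0.00258). Mrpl23 (chromosome 7, 142532467 to 142540747), at the mouth of the tunnel through which new proteins leave, had 164, 133 and 167, then 161, 159.7 and 143, then 168, 207 and 131, and at 22 months 229, 272 and 219. Again no library of another age reached the 3 at 22 months. Its log2 fold change was 0.53 ± 0.14 against 18 months (adjusted p = 0.0179) and 0.63 ± 0.14 against 2 months (adjusted p = 0.0028).

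Mrpl36 had 171, 145 and 157 normalised counts at 22 months, 0.48 ± 0.13 above 18 months on the log2 scale (adjusted p = 0.0169) and 0.06 ± 0.13 from 2 months (adjusted p = 0.729). A turn at 18 months, passing in opposite directions before and after it, was counted for 5 of 15663 tested genes. No member could be counted, as none passed between 6 and 18 months. Mrpl42, Mrpl43 and Mrpl49, all mitochondria-specific, had log2 fold changes of 0.32 ± 0.10, 0.30 ± 0.10 and 0.29 ± 0.08 from 18 to 22 months, with adjusted p of 0.0395, 0.0451 and 0.0132. The Mrpl42 and Mrpl43 calls were also lost with the replicate block and without the intensity trend. Mrpl43 had 239, 237 and 215 at 18 months and 266, 275 and 309.7 at 22 months, without overlap. It shares 780 nt of annotated gene span with Twnk on the other strand, and whether the counting used strand is not given in the sources used here, so its reads are uncertain, as are those of all 20 members that overlap a tested gene. Twnk itself changed by 0.09 ± 0.11 at this step (adjusted p = 0.571).

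**Figure D2:**
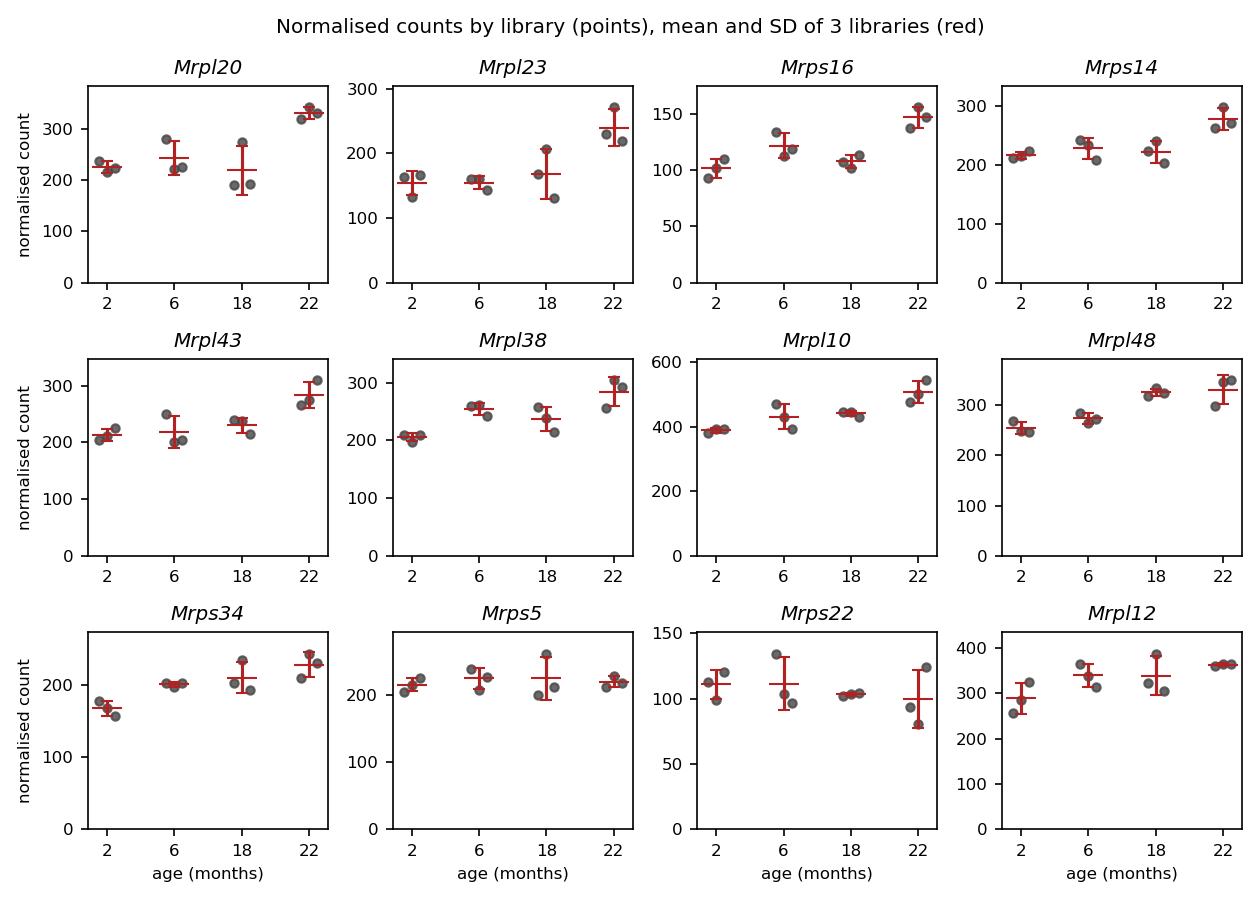
Normalised counts of 12 mitochondrial ribosomal protein genes in each library by age in months (grey points), with the mean and SD of 3 libraries in red, on axes that start at 0. The upper 9 panels, up to Mrps34, are genes that passed the threshold at 22 against 2 months, Mrpl12 did too, and Mrps5 and Mrps22 did not.

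Against 6 months, 15 members were higher at 22 months, beside 10.6% of all tested genes, and none was lower, beside 11.6% (22.2% in either direction). The median log2 fold change was 0.18. Mrpl23 was the largest of these (0.63 ± 0.14, adjusted p = 0.00586), and the others named by rule were Mrpl20, Mrpl43, Mrpl42, Mrps33, Mrps21, Mrpl46, Mrps14, Mrpl27, Mrpl48, Mrpl10 and Mrps25. The other 3 called, named after their values were seen, were Mrps28, Mrps18a and Mrpl9. Mrps33, a mitochondria-specific small-subunit protein with the highest level per kilobase, had 629, 514 and 525 normalised counts at 6 months and 784, 667 and 667 at 22 months (0.34 ± 0.10, adjusted p = 0.0168). Replicate 1 at 6 months came nearest to the older group without reaching it. Mrps25 had 1073, 959.7 and 1013 at 6 months and 1215, 1119 and 1110.3 at 22 months (0.18 ± 0.06, adjusted p = 0.0342), and shares 3547 nt of gene span with Nr2c2, so its reads too are uncertain. The count of 15 depended on single libraries of both ages. It was 1 without replicate 2 or replicate 3 of 6 months, leaving Mrpl23, and 19 without replicate 1 of 6 months. It was 7, 5 and 7 without replicates 1, 2 and 3 of 22 months, and DESeq2 called 7. Over all tested genes the count called higher, 1659, was 771 and 830.0 without replicates 2 and 3 of 6 months, 1921 without replicate 1 of that age, 1450.0, 1074 and 1128 without replicates 1, 2 and 3 of 22 months, and 1201 with DESeq2. The call of Mrpl23 held in all 12 fits with a library left out, those of Mrpl20, Mrpl43 and Mrps33 in 9, of Mrpl46 in 6 and of the other 7 named genes in 8. Of the named genes, Mrpl48 and Mrps25 were still called once the length and GC trend was removed.

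Over the whole span, 30 of the 75 members were higher at 22 than at 2 months, beside 18.4% of all tested genes, and none was lower, beside 17.2% (35.7% in either direction). The median log2 fold change was 0.24 over the family and 0.02 over all tested genes, and 68 of the 75 fold changes were above 0. By subunit, 10 of 26 small-subunit genes and 20 of 48 large-subunit genes rose, with medians of 0.24 and 0.26. Of genes with a bacterial counterpart, 16 of 46 rose (median 0.20), and of mitochondria-specific genes 14 of 28 (median 0.27). The difference between these groups was not tested. edgeR called 21 and DESeq2 19, and the count was 18 without replicate 2 of 2 months, the lowest of the 12 values with a library left out. Over all tested genes 2889 were called higher, 2555 by edgeR, 2007 by DESeq2 and 2115 without that library. Of the 23 members named at this span, the calls of Mrpl2, Mrpl10, Mrpl11, Mrpl20, Mrpl23, Mrpl28, Mrpl38, Mrpl43, Mrpl48, Mrps14, Mrps16 and Mrps34 held in all 12 fits. Those of Mrpl12 and Mrpl42 held in 11, of Mrps33 in 10, of Mrpl44, Mrpl45 and Mrps35 in 8, of Mrpl3, Mrpl27 and Mrpl46 in 7, of Mrps21 in 6 and of Mrpl49 in 2. edgeR lost Mrpl3, Mrpl44, Mrpl45, Mrpl46, Mrpl49, Mrps21 and Mrps35, and DESeq2 these and Mrpl27. The comparisons of 22 with 18, 6 and 2 months share the 22-month libraries.

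Values of the named large-subunit genes with bacterial counterparts follow. Mrpl10, whose protein anchors the stalk where translation factors bind, had 380.3, 392 and 394 normalised counts at 2 months, then 472, 432 and 393 at 6, then 447, 447 and 431 at 18, and 478, 501 and 545 by 22 months. Every library at 22 months lay above those of the other ages, and every one at 2 months lay below those of 18 months. Its log2 fold change at 22 against 2 months was 0.38 ± 0.07 (adjusted p = 0.000999). Mrpl11, for a protein at the base of the stalk, had 239, 252 and 262 at 2 months and 355, 331 and 297 at 22 months (0.38 ± 0.09, adjusted p = 0.00453). Mrpl12, for the stalk protein itself, which in mammals also binds the mitochondrial RNA polymerase, had 257, 285 and 324 at 2 months, then 366, 338 and 315 at 6, and 359.8, 366 and 366 by 22 months (0.34 ± 0.10, adjusted p = 0.0135). The 2-month libraries lay below those of 22 months, while the libraries of 6 and of 18 months overlapped both. The Mrpl12 call was lost without replicate 1 of 2 months and once the length and GC trend was removed (0.08, adjusted p = 0.545). Its last step was 0.11 ± 0.10 (adjusted p = 0.475).

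Mrpl2, Mrpl3 and Mrpl27 encode counterparts of bacterial proteins near the peptidyl transferase centre, where peptide bonds form. Mrpl2 had 159, 183 and 184 normalised counts at 2 months and 212, 253 and 253 at 22 months (0.44 ± 0.11, adjusted p = 0.00444). At these ages Mrpl3 had 479, 447 and 427 against 508, 544 and 499 (0.20 ± 0.07, adjusted p = 0.0388), and Mrpl27 had 276, 279.7 and 276 against 356, 297 and 354 (0.27 ± 0.09, adjusted p = 0.026). In each of the 3 the groups did not overlap, as the highest 2-month library stayed below the lowest 22-month one. How many of all tested genes did so was not counted. Once the length and GC trend was removed, Mrpl2 (0.13, adjusted p = 0.375) and Mrpl27 (-0.01, adjusted p = 0.928) no longer passed. Mrpl28, the counterpart of a bacterial large-subunit protein, rose by 0.46 ± 0.10 (adjusted p = 0.00218). Mrpl32, which the m-AAA protease must cleave before it enters the ribosome, had 109, 125 and 117 against 119.9, 99.9 and 120.1, overlapping groups with a log2 fold change of -0.05 ± 0.16 (adjusted p = 0.833).

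Of the mitochondria-specific large-subunit genes, Mrpl38 had 209, 197 and 210.2 normalised counts at 2 months, then 259.9, 261 and 242 at 6, then 258, 239 and 215 at 18, and 257, 304 and 293 by 22 months. The 2-month libraries lay below all 9 later ones. The log2 fold change was 0.47 ± 0.09 for 22 against 2 months (adjusted p = 0.000921) and 0.31 ± 0.09 already for 6 against 2 months, without passing (adjusted p = 0.11). Mrpl43 rose by 0.40 ± 0.10 (adjusted p = 0.0045) and Mrpl48 by 0.38 ± 0.08 (adjusted p = 0.0018). Mrpl44, which has a fold like that of RNase III, spread widely at 2 months (131, 169.7 and 207), its highest library level with the lowest at 22 months (207, 223 and 227), with 0.40 ± 0.14 (adjusted p = 0.0307). Without replicate 1 of 2 months its log2 fold change was 0.22 and did not pass, and the call was also lost without replicate 2 of 2 months, replicate 2 or 3 of 22 months, and under the length and GC adjustment, edgeR or DESeq2. Mrpl45, which ties the ribosome to the inner membrane, rose by 0.24 ± 0.09 (adjusted p = 0.037).

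In the small subunit, Mrps34 had 209.9, 244 and 231 normalised counts at 22 months, 0.44 ± 0.09 above 2 months (adjusted p = 0.00197), and Mrps14 rose by 0.35 ± 0.09 (adjusted p = 0.00592). Mrps35, a mitochondria-specific protein, had 95.1, 89.0 and 103 at 2 months and 126, 132 and 111 at 22 months (0.36 ± 0.13, adjusted p = 0.0377). Mrps5, whose level differs between mouse strains of differing lifespan and whose worm counterpart lengthens life when knocked down, had 204, 215 and 224 at 2 months, then 238, 207 and 226 at 6, then 199.9, 261 and 211 at 18, and 211, 228 and 218 by 22 months. Its ages overlapped throughout, and its log2 fold change at 22 against 2 months was 0.03 ± 0.10 (adjusted p = 0.846). Mrps22, a mitochondria-specific gene mutated in human respiratory chain disease, had 113, 99.0 and 121 at 2 months against 93.9, 80.8 and 124 at 22 months and one of the few negative log2 fold changes (-0.17 ± 0.15, adjusted p = 0.416). Mrps36, now known as a subunit of the 2-oxoglutarate dehydrogenase complex and not of the ribosome, had 0.21 ± 0.13 (adjusted p = 0.232).

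**Figure D3:**
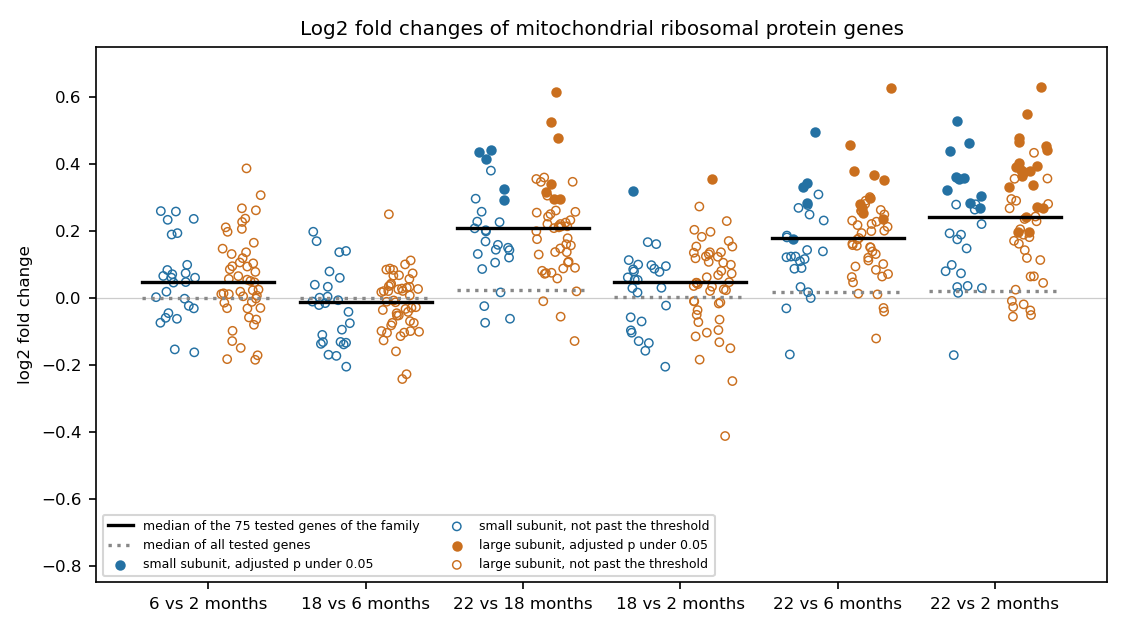
Log2 fold changes of the tested small-subunit (blue) and large-subunit (orange) genes in each comparison of ages, filled where the limma adjusted p is under 0.05, without Mrps36, which belongs to neither. Black lines are the median of all 75 tested members (0.24 at 22 against 2 months) and dotted lines the median of all tested genes.

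By mean level, 63 of the 75 tested members were highest at 22 months, beside 39.3% of all tested genes, and 40 were lowest at 2 months, beside 30.3%. Mrpl47 and Mrps22 were lowest at 22 months, beside 32.4% of all tested genes. The F test over the 4 ages called 23 members of 75, beside 31.5% of all tested genes, a share near the background. That count was 14 without replicate 2 of 2 months or replicate 1 of 22 months, 11 without replicate 2 of 22 months and 9 without replicate 3 of 22 months. The F test count over all tested genes was not taken in those fits.

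The rise at 22 months went with transcript length, in the family and outside it. Of members with a transcript under 1500 nt, 20 of 47 rose between 2 and 22 months (median log2 fold change 0.28), and of all tested genes that short 926 of 2372 rose and 71 fell (median 0.25). Between 1500 and 3000 nt, 5 of 12 members rose (median 0.20), against 1273 higher and 406 lower of 5254 genes (median 0.11). At 3000 nt or more, 5 of 16 members rose and none fell (median 0.09), against 601 higher and 2109 lower of 7227 genes (median -0.10). Across genes, which are not independent, Spearman's rho of fold change with length was -0.33 over the 75 members and -0.49 over 14853 genes, all measured in the same libraries. With GC content it was 0.47 and 0.30.

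After a smooth trend of each library over length and GC content was taken out, 10 members were higher and 2 lower at 22 against 2 months, beside 12.8% and 10.8% of all tested genes, so the share of members called higher was near the background. The median log2 fold change of the family was then 0.07, against 0.02 over all tested genes. Mrps16 (0.50, adjusted p = 0.0033), Mrpl48 (0.49, adjusted p = 0.000573), Mrps14 (0.44, adjusted p = 0.00416), Mrpl11 (0.38, adjusted p = 0.00598), Mrpl10, Mrpl3, Mrps35 and Mrps26 were higher with and without the trend. Mrpl17 (0.39, adjusted p = 0.0215) and Mrps25 (0.25, adjusted p = 0.0106), with transcripts of 7300 and 6073 nt, were called only with it removed. Mrpl20 (0.25, adjusted p = 0.085) and Mrpl23 (0.26, adjusted p = 0.151) no longer passed. At 3000 nt or more, 7 of 16 members were then higher (median 0.25), against 1083 higher and 838 lower of 7227 genes (median 0.02). Under 1500 nt none of 47 members was higher and 2 were lower, against 218 higher and 194 lower of 2372 genes. The genes called lower were Mrps15 and Mrpl24, which, like Mrps26, were picked out here after their values were seen. Against 18 months 6 members were then higher and none lower, beside 6.15% and 5.24% of all tested genes, and against 6 months 4 and none, beside 7.06% and 6.4%. At 18 against 2 months, 1 was higher and 2 were lower, beside 4.01% and 4% of all tested genes. Removing the trend also removes any change of the tissue that follows length, and these cannot be told apart here.

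**Figure D4:**
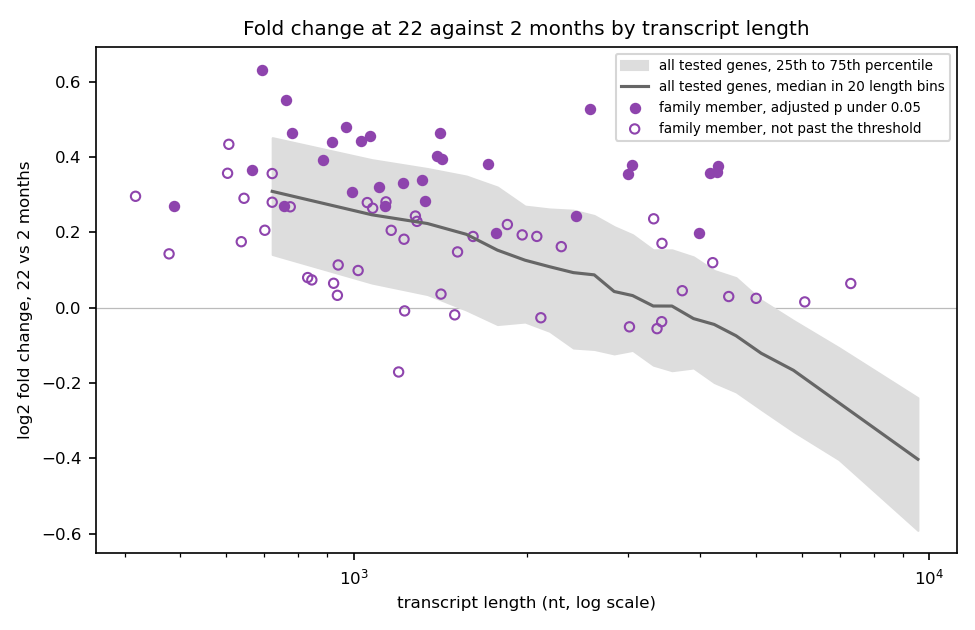
Log2 fold change at 22 against 2 months of the 75 tested members against transcript length in nt on a log scale, filled where the limma adjusted p is under 0.05. The grey line and band are the median and the 25th to 75th percentile of all tested genes in 20 length bins; the 16 members of 3000 nt or more have a median of 0.09 and all such genes a median of -0.10.

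Other proteins of the mitochondrial ribosome carry no Mrpl or Mrps symbol. Of 5 in a list of these, Aurkaip1 (0.32 ± 0.10, adjusted p = 0.0168) and Chchd1 (0.31 ± 0.12, adjusted p = 0.0489), both of the small subunit, were higher at 22 than at 2 months, and none was lower. Of all tested genes 18.4% were higher and 17.2% lower. Once the length and GC trend was removed, 1 of the 5 was higher and none lower (median 0.06), beside 12.8% and 10.8% of all tested genes. Dap3, the small-subunit GTPase also known from apoptosis, had 472, 448 and 471 normalised counts at 2 months, then 472, 439 and 394 at 18, and 507, 502 and 516 by 22 months. It passed against 18 months (0.23 ± 0.08, adjusted p = 0.0477) and not against 2 months (adjusted p = 0.192). Ict1, counted apart from that list, is a large-subunit protein that frees stalled peptides. It had 171, 142 and 159.5 at 2 months, then 193, 200 and 189 at 18, and 189, 203 and 203 by 22 months. The libraries of 2 and 22 months did not overlap (0.33 ± 0.09, adjusted p = 0.0113). The step from 18 to 22 months was 0.03 ± 0.09 (adjusted p = 0.864). Mrp63, another large-subunit gene outside both the rule and that list, had 169, 142 and 157 at 2 months against 176, 165 and 173 at 22 months, overlapping groups, and did not pass (0.14 ± 0.12, adjusted p = 0.426), nor did it in any other comparison.

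The machinery that builds and serves the mitochondrial ribosome was counted in the same way, beside 18.4% higher and 17.2% lower over all tested genes. Of 25 assembly factors, 3 were higher and none lower at 22 against 2 months: Ddx28 (0.65 ± 0.15, adjusted p = 0.00314), Noa1 (0.43 ± 0.10, adjusted p = 0.0035) and Malsu1 (0.59 ± 0.18, adjusted p = 0.0155). Of 15 translation factors, 3 were higher: Mtif3, an initiation factor (0.35 ± 0.10, adjusted p = 0.01), Tufm, the elongation factor that brings aminoacyl-tRNA (0.25 ± 0.09, adjusted p = 0.0327), and Slirp, which stabilises mitochondrial mRNA (0.34 ± 0.12, adjusted p = 0.0379). Of 20 mitochondrial aminoacyl-tRNA synthetases, Fars2 was higher (0.47 ± 0.10, adjusted p = 0.00132), and Wars2 (-0.42 ± 0.15, adjusted p = 0.0377) and Mars2 (-0.44 ± 0.16, adjusted p = 0.0404) were lower. Medians of these lists were 0.17, 0.01 and 0.00. Of 16 genes of mitochondrial DNA transcription and maintenance, Esrra was higher (0.33 ± 0.07, adjusted p = 0.00111), while Pprc1 (-0.58 ± 0.11, adjusted p = 0.000915) and Ppargc1b (-0.94 ± 0.22, adjusted p = 0.00323), coactivators of mitochondrial biogenesis, were lower (median 0.04). Once the trend was removed the counts were 3 higher and 2 lower for assembly factors (median 0.01), 1 and 0 for translation factors (0.00), 2 and 1 for synthetases (-0.05), and 2 and 2 for mitochondrial DNA genes (0.13), beside 12.8% and 10.8% over all tested genes.

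Genes for the respiratory chain, for cytosolic ribosomes and for import were set beside the family. Of all tested genes 18.4% were higher and 17.2% lower at 22 against 2 months. Of 80 respiratory chain and ATP synthase genes, 72 were higher and none lower at 22 against 2 months (median log2 fold change 0.37), and of 76 cytosolic ribosomal protein genes 73 and none (median 0.40). Of 25 genes of mitochondrial import and mass, such as Tomm20 (0.24 ± 0.05, adjusted p = 0.00111) and Vdac1 (0.27 ± 0.05, adjusted p = 0.00112), 12 were higher and none lower (median 0.20). Once the trend over length and GC was taken out the counts were 17 of 80, 38 of 76 and 6 of 25, beside 10 of 75 for the family. None was lower in these 3 lists. Of all tested genes 12.8% were then higher and 10.8% lower. No test of the difference between lists was made.

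**Figure D5:**
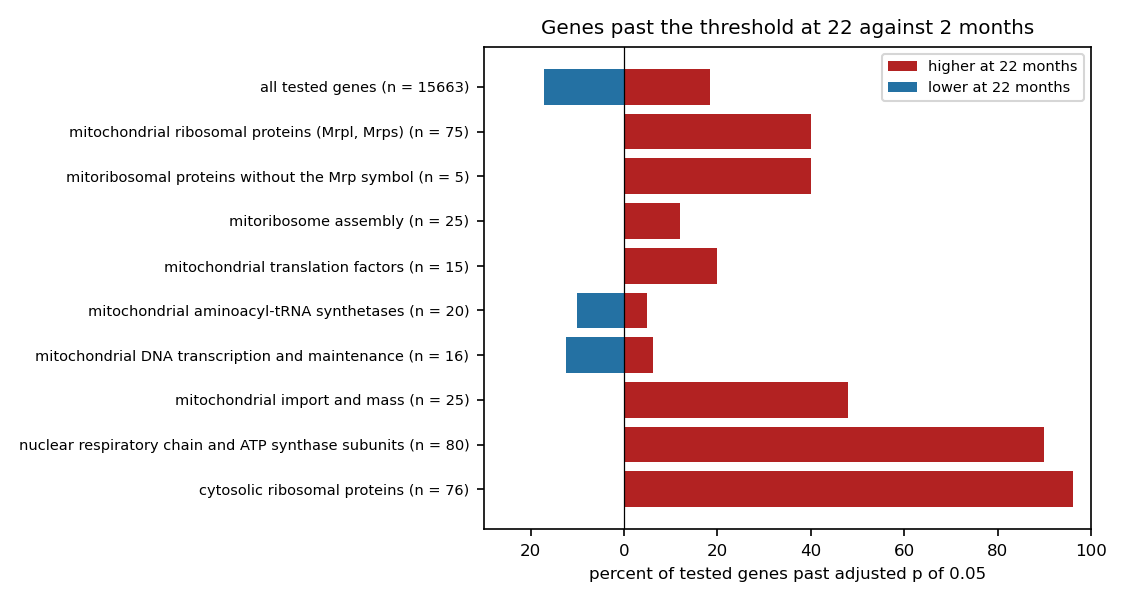
Percent of tested genes past the limma adjusted p of 0.05 at 22 against 2 months, higher to the right and lower to the left, for all tested genes, the mitochondrial ribosomal protein family (40% higher) and 8 companion lists. The synthetase list and the list for mitochondrial DNA transcription hold genes in both directions.

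Cell type markers moved between the same libraries. At 22 against 2 months all 5 markers of activated stem cells and progenitors were lower. Their summed level was 1744 to 1902 normalised counts at 2 months and 721 to 860.4 at 22 months. Of 5 neuroblast markers 4 were lower, with sums of 10733 to 11597 and 9965 to 10872.5. The largest part of the neuroblast sums was Tubb3, with 8266 to 8895.5 at 2 months and 8331 to 9439 at 22 months. At these ages Dcx had 1079 to 1190 and 463 to 639, and Sox11 had 634 to 703 and 352 to 374. Cd24a had 574 to 641 and 506 to 511, and Dlx2 had 172 to 226 and 100 to 133. Of 5 markers each, 4 were higher for ependymal cells (sums of 1107 to 1259.7 and 1518 to 1721) and 4 for striatal and other neurons (33135 to 35144 and 41030.0 to 42795). For oligodendrocytes 3 were lower (81018 to 102894 and 64133 to 83301.5), for microglia 2 were higher (2297 to 2384 and 2813 to 3233), and for endothelium 2 were higher (976 to 1189.8 and 1263 to 1379). For astrocytes and quiescent stem cells 2 were higher and 1 lower (11152 to 11599 and 12231 to 12465). No choroid plexus marker passed (3672 to 5022 and 3069 to 4252), and 1 of 2 measured erythroid markers was higher (584 to 1071 and 1399 to 1880.4). Against 18 months, 4 of 5 ependymal markers were higher (sums of 1095 to 1297 at 18 months) and 4 of 5 oligodendrocyte markers lower (84979 to 112791). At that step 1 neuroblast marker was higher and none lower (9242 to 9594), 1 progenitor marker was higher and 1 lower (802 to 952), 2 neuron markers were higher (36414 to 39884), and 1 each was higher for microglia (2737 to 2980.2) and endothelium (1120.2 to 1286). For choroid plexus 1 marker was lower (3940.5 to 4794), and none passed for astrocytes (10590.4 to 12286) or erythroid cells (1127 to 1503). None of the markers in the table was at 0 in all libraries. The part of these shifts, and of the read totals, in the rise of the mitochondrial ribosomal protein genes was not tested.

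Within the family, promoter motif and change with age were set side by side as a description, beside 18.4% of all tested genes called higher. Of tested genes with the ETS letters 11 of 23 were higher at 22 than at 2 months (median log2 fold change 0.28), and of those without 15 of 43 (0.20). With the NRF1 letters it was 6 of 12 (0.26) and without 20 of 54 (0.24), and with the YY1 letters 3 of 8 (0.25) and without 23 of 58 (0.24). Of the genes read away from a member, Ndufb5 beside Mrpl47 rose (0.37 ± 0.08, adjusted p = 0.00196), where Mrpl47 had 90.3, 68.8 and 87.3 normalised counts at 2 months and 74.3, 79.3 and 81.8 at 22 months and a log2 fold change of -0.06 ± 0.13 (adjusted p = 0.77). Fau, a cytosolic ribosomal protein gene 192 bases from Mrpl49, rose by 0.60 ± 0.07 (adjusted p = 1.91e-05), and Mrpl49 had 0.20 ± 0.08 (adjusted p = 0.0499), a call that held in 2 of 12 fits with a library left out and was lost with edgeR, DESeq2, a pseudocount of 5 and the replicate block. Other neighbours fell: Ncapd2 beside Mrpl51 (-0.63 ± 0.09, adjusted p = 6.79e-05) and Helq beside Mrps18c (-0.29 ± 0.11, adjusted p = 0.0446). Mrpl51 itself had -0.04 ± 0.08 (adjusted p = 0.75) and Mrps18c 0.18 ± 0.15 (adjusted p = 0.398). These neighbours were picked after their values were seen.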

How the data were processed

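RNA-seq values for 12 SVZ libraries came from 1 table of the whole series. The authors deposited size-factor-normalised counts, a signal made by dividing read counts by a size factor per library: 100% of values in every column were whole multiples of what 1 read is worth there (tolerance 1e-06), so reads were recovered. The submitters' processing notes name DESeq2 and mm10. Aligner, counter, annotation and strandedness are not given in the sources used here. A log2 fold change column deposited by the authors was not used. Size factors estimated again with DESeq2 differed by at most 1.57%. Same-age libraries differed by more than counting noise (chi-square per degree of freedom 1.47 to 5.93), so none was counted as a repeat.

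The 15663 genes that reached 10 normalised counts in 3 or more libraries were tested as log2(value + 1) with limma 3.58.1 in R 4.3.3, with all 12 libraries in 1 fit, moderated variances that follow intensity, and 8.96 prior degrees of freedom. P-values are two-sided and Benjamini-Hochberg adjusted over all tested genes, with a threshold of 0.05. Fold changes are on the log2(value + 1) scale and understate low genes. Errors of fold changes are SE and of means SD over 3 libraries. Overlap of libraries between ages was not counted over all tested genes, so it describes single genes and is not a further test. Transcript length and GC content came from 1 GENCODE vM21 transcript per gene (14853 tested genes), protein-coding where available. Coordinates and promoters came from RefSeq on GRCm38.p6. Library trends over length and GC were fitted with mgcv 1.9.3. The code was tested on simulated data.

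The members and lists were chosen with earlier results of these data known. Named were, per comparison, up to 12 higher and 12 lower members by smallest p, the 10 with the smallest F test p, a panel of 13 genes, the 3 highest and 3 lowest per kilobase, members under the filter, and up to 4 called genes per companion list. Bacterial counterparts were assigned by ribosomal protein nomenclature. Alternatives were edgeR 4.0.16 and DESeq2 1.42.0 on reads, other filters (none, 50) and pseudocounts (0.5, 5), no intensity trend, compared ages alone, each library left out, a replicate block, and the length and GC trend removed.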

Additional observations from a re-analysis of the deposited data

How the results depend on the processing

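The counts of 0 for 6 against 2 and for 18 against 6 months were 0 under every alternative. For 22 against 18 months the count of 12 members became 7 without the intensity trend, 6 with the length and GC trend removed, 5 with the replicate block added to that, and 5 with DESeq2, and ran from 3 to 19 with each library left out. For 18 against 2 months the count of 2 became 1 with no filter, pseudocount 5, no intensity trend, the compared ages alone, the replicate block or DESeq2, was 3 with the length and GC trend removed (1 higher, 2 lower), and ran from 0 to 2 with a library left out. For 22 against 6 months the count of 15 became 9 without the intensity trend or with the compared ages alone, 4 with the length and GC trend removed with or without the block, and 7 with DESeq2, with a range of 1 to 19. For 22 against 2 months the count of 30, all higher, became 12 with the length and GC trend removed (10 higher, 2 lower), 11 with the block as well (10 higher, 1 lower), and 19 with DESeq2, with a range of 18 to 33. The F test count of 23 became 12 without the intensity trend and 11 under the length and GC adjustment, with the block as well, or with DESeq2, with a range of 9 to 26. Over all tested genes the count called higher moved as well. Without the intensity trend it was 811 for 22 against 18 months and 1196 for 22 against 6 months (1352 and 1659 with it). With the length and GC trend removed it was 913, 1049 and 1898 for 22 against 18, 6 and 2 months. For 18 against 2 months it was 617 in the main fit, 506 with no filter, 616 with pseudocount 5 and 381 without the intensity trend. In that comparison it was 600 with the compared ages alone, 512 with the replicate block and 528 with DESeq2. The F test was not counted over all tested genes under these alternatives. The cause of these shifts was not tested. Mrpl27 and Mrps21 changed sign at 22 against 2 months when the length and GC trend was removed, with or without the block (log2 fold changes of -0.012 and -0.019). The range for 22 against 6 months was lowest without replicate 2 or 3 of 6 months.

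Replicate numbers are shared between ages, but same-numbered libraries did not deviate together (correlations of -0.187 to 0.159). No pairing was seen by this measure, and shared handling under 1 number was not tested. With the replicate block alone, 9, 13 and 27 members were called higher at 22 months against 18, 6 and 2 months, and the F test called 19. Over all tested genes 1120, 1454 and 2683 were called higher with the block, and 1352, 1659 and 2889 without it. Of the 23 named calls for 22 against 2 months, 12 held without each library in turn, 7 under the length and GC adjustment, 15 with DESeq2 and 16 with edgeR. The lower depth at 22 months and 3 libraries per age limit the precision of single genes.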
